A study of Mus musculus with 10 samples.

Results

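The Iroquois genes Irx1, Irx2, Irx3, Irx4, Irx5 and Irx6 were followed in RNA-seq libraries of the anterior fontanelle (AF), the fibrous soft spot between the frontal bones of the developing skull. All 6 symbols of the mouse family were present among the 23080 genes of the deposited count table, and all 6 are accounted for here. The family was proposed from results of this same comparison, by its difference between the groups, so the differences between groups are given as a description and not as a test. The mouse tissue, taken at E18.5, contained bone besides the fibrous AF itself, and 10 libraries were made, 5 labelled wild type and 5 labelled neural crest knockout of Fgfr2. The knockout genotype is Wnt1-Cre; Fgfr2fl/fl, in which the Wnt1 promoter drives Cre in the neural crest, so that cells of other origin in the dissected tissue keep the receptor gene. The labels call the controls wild type, whereas the study speaks of littermate controls, and no Cre or floxed allele is given for them.

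The level of Fgfr2 itself was higher in the libraries labelled knockout. Fgfr2, which encodes a receptor for fibroblast growth factors, was at 199.5 ± 21.7 CPM (counts scaled to a common library total) in the libraries labelled wild type and at 318 ± 32.8 CPM in those labelled knockout (SD, n = 5 per group), and the groups did not overlap. Its log2 fold change was 0.67 (adjusted p = 0.0487 by edgeR's quasi-likelihood test with Benjamini-Hochberg adjustment). The table holds 1 value for the whole gene, so exons outside the deleted part are counted too, and the value cannot show the deletion. The groups are therefore called control-labelled and mutant-labelled, and every direction below is that of the labels. The table summed to 20774667 to 28515434 counts per library. Of 16267 genes tested, 3 passed an adjusted p of 0.05, of which 2 were higher and 1 was lower in the mutant-labelled libraries. Markers of AF connective tissue (Scx, Tnmd, Mkx and Matn4) were present in every library, with summed levels of 148 to 179 CPM in the control-labelled and 199 to 278 CPM in the mutant-labelled libraries.

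Iroquois proteins are transcription factors of the TALE class, whose homeodomain carries extra residues in the loop between the first and the second helix. They are best known for dividing tissues into regions during development, in the neural tube, heart and limb, and their genes respond in several tissues to hedgehog, WNT and retinoid signals. The mammalian genes lie in a pair of clusters that arose by duplication, IrxA with Irx1, Irx2 and Irx4, and IrxB with Irx3, Irx5 and Irx6. Genes at matching places in the clusters are the closest relatives (Irx1 with Irx3, Irx2 with Irx5, Irx4 with Irx6). Loss of Irx3 and Irx5 is known to disturb limb and skeletal patterning in mice, variants of human IRX5 cause a craniofacial syndrome, and Irx4 is known as a gene of the heart ventricles.

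In the GRCm38 assembly with the GENCODE M21 annotation, the IrxA cluster lies on chromosome 13 and spans 1312 kb, with Irx1 at chr13:71957921-71963723 on the minus strand, Irx2 at chr13:72628820-72634198 on the plus strand and Irx4 at chr13:73260479-73269608 on the plus strand. The IrxB cluster lies on chromosome 8 and spans 882 kb, with Irx3 at chr8:91798525-91802067 on the minus strand, Irx5 at chr8:92357625-92376286 on the plus strand and Irx6 at chr8:92674288-92680956 on the plus strand. All 6 are protein-coding genes.

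The conserved end of the homeobox shows how alike the members are, and reads that lie within it cannot tell Irx3 from Irx6. The stretch of 63 bases below, read from the GENCODE M21 transcripts, covers the end of the homeobox with the recognition helix that contacts DNA, and lies within 1 coding exon in each gene. Capitals mark bases that differ from Irx3.
Irx3: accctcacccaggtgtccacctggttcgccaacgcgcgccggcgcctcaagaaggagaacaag
Irx6: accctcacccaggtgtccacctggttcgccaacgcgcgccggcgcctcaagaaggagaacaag
Irx5: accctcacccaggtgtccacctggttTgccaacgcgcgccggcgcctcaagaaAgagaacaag
Irx1: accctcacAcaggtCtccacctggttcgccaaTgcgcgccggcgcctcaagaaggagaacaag
Irx2: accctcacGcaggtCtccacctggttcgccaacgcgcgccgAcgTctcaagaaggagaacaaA
Irx4: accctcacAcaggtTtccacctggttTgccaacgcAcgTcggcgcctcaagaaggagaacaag
Irx3 and Irx6 had the same 63 bases. Irx5 differed from Irx3 at 2 positions, Irx1 at 3, and Irx2 and Irx4 at 5 each. In the genome the stretch lies at chr8:91800496-91800558 on the minus strand for Irx3, at chr8:92677362-92677424 on the plus strand for Irx6 and at chr13:71959992-71960054 on the minus strand for Irx1.

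The libraries were read as single reads of 50 bases, and 50-base words were therefore compared between the members' transcripts and all other annotated transcripts. Irx1 shared none of its 2585 words with another gene, and Irx4 none of its 2603. Irx2 shared 16 of 3324 words, all with Irx5, through an identical run of 65 bases. Irx6 shared 39 of 3368 words with Irx3, through a run of 88 bases that holds the stretch above. In the deposited table the values of Irx1 and Irx4 were exactly whole, with no tolerance, in 10 of 10 libraries, whereas those of the other 4 members were not exactly whole in any library. Spread evenly over its transcripts, the signal of Irx5 would place 4.30 to 6.92 counts per library in the words it shares with Irx2, and that of Irx3 would place 12.1 to 20.3 in the words it shares with Irx6. How the counting divided such reads was not tested. Exons of Irx3 overlap those of the opposite-strand transcript Irx3os by 124 bases and exons of Irx6 those of the opposite-strand Gm45505 by 152 bases, and the strand setting of the counting is not given in the sources used here.

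Levels are compared between members per kilobase of annotated exon, over all 10 libraries. Irx3 and Irx5 were the abundant members, at 15.5 ± 1.54 and 12.98 ± 1.38 CPM per kb (SD, n = 10), above 89.1% and 86.6% of the genes tested. Irx6 was at 1.22 ± 0.385, Irx1 at 0.464 ± 0.336, Irx2 at 0.177 ± 0.103 and Irx4 at 0.0179 ± 0.0406 CPM per kb. Among 31 homeobox genes of the TALE class and of skull and limb patterning, Irx3 and Irx5 ranked 6 and 8 from the top in the control-labelled and 7 and 9 in the mutant-labelled libraries, among Alx4 and Pbx2. Irx6, Irx1, Irx2 and Irx4 ranked 24, 28, 30 and 31 in the control-labelled and 26, 27, 29 and 31 in the mutant-labelled libraries.

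Neighbouring pairs in this order, which was itself set from these levels, were compared over all 10 libraries by a two-sided exact permutation test that flipped the signs of the within-library differences, adjusted over the 5 pairs. Irx5 exceeded Irx6 in 10 of 10 libraries by 3.45 ± 0.37 on the log2 scale (SD, n = 10; exact permutation p = 0.00195, the smallest the flips can give, adjusted p = 0.00326). Irx1 exceeded Irx2 in 10 of 10 libraries by 1.28 ± 0.59 (exact permutation p = 0.00195, adjusted p = 0.00326). Irx3 exceeded Irx5 in 9 of 10 libraries by 0.25 ± 0.14 (exact permutation p = 0.00391, adjusted p = 0.00488). The order of Irx3 and Irx5 depended on the length used, since the difference was −0.034 (exact permutation p = 0.484) when the longest transcript replaced the sum of exons.

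Irx6 exceeded Irx1 in 9 of 10 libraries, by 2.69 ± 0.28 on the log2 scale of CPM per kb in the control-labelled libraries and by 0.53 ± 0.69 in the mutant-labelled ones (SD, n = 5 per group; all 10 libraries, exact permutation p = 0.00586, adjusted p = 0.00586), so that the mutant-labelled difference lay within its spread. No test was made of this difference between the groups. The exception was mutant-labelled replicate 1, which had the highest Irx1 and the lowest Irx6 of its group. Irx2 exceeded Irx4 in 10 of 10 libraries (exact permutation p = 0.00195, adjusted p = 0.00326), and no fold is given because Irx4 had no counts in 6 of them. In those 6 any count of Irx2 fixed the direction, so the p-value adds little to the counts.

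**Figure D1:**
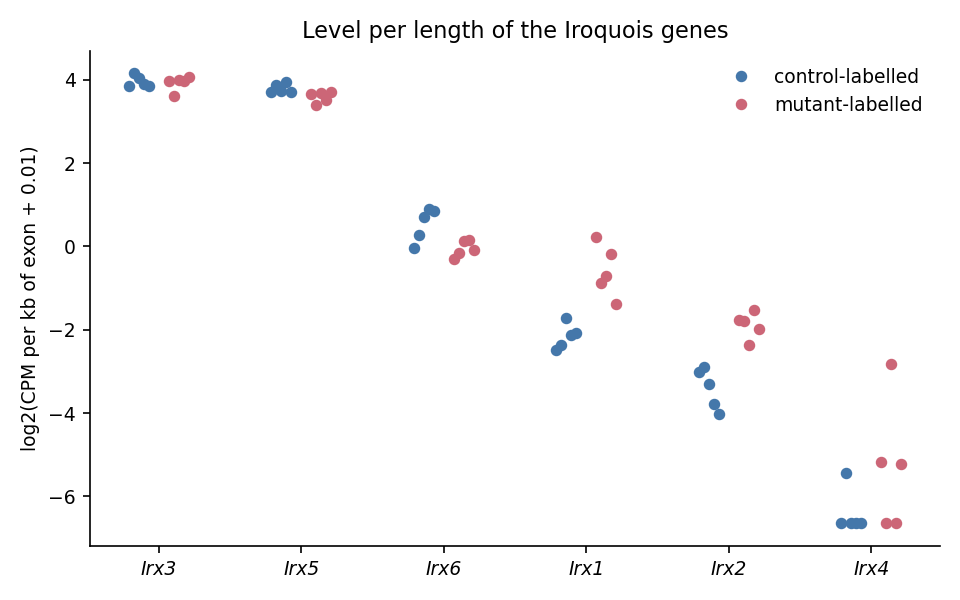
Level of each Iroquois gene per kilobase of exon, as log2 of CPM per kb plus 0.01, in order of mean level; points are single libraries, blue for control-labelled and red for mutant-labelled (n = 5 each). Irx3 and Irx5 lie together at the top, and the distance from Irx6 down to Irx1 is smaller in the red points; the lowest Irx4 points are libraries without a count.

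Irx1 and Irx2, the IrxA genes with enough counts to be tested, had higher levels in the mutant-labelled libraries, with no overlap between the groups. Irx1 is known from lung, tooth, kidney and limb development. In control-labelled replicates 1 to 5, Irx1 had 12, 14, 18, 14 and 14 counts, or 0.445, 0.480, 0.765, 0.572 and 0.592 CPM. In mutant-labelled replicates 1 to 5 it had 66, 35, 37, 54 and 22 counts, or 3.06, 1.39, 1.58, 2.30 and 0.971 CPM. The lowest mutant-labelled library was above the highest control-labelled one, and replicates 1 and 4 stood highest. The means were 0.571 ± 0.125 and 1.86 ± 0.826 CPM (SD, n = 5 per group), a log2 fold change of 1.70 (SE 0.318, 95% interval 1.00 to 2.40), which is 3.25-fold on a linear scale.

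Irx2 is the neighbour of Irx1 in the cluster and is often expressed in overlapping regions. In control-labelled replicates 1 to 5, Irx2 had 10, 12, 7, 5 and 4 counts, or 0.371, 0.412, 0.298, 0.204 and 0.169 CPM. In mutant-labelled replicates 1 to 5 it had 20, 23, 14, 26 and 18 counts, or 0.929, 0.914, 0.599, 1.11 and 0.795 CPM. These groups did not overlap either, and the highest mutant-labelled library was replicate 4, not the replicate 1 that led for Irx1. The means were 0.291 ± 0.104 and 0.869 ± 0.187 CPM (SD, n = 5 per group), a log2 fold change of 1.55 (SE 0.297, 95% interval 0.90 to 2.20), or 2.92-fold. By the even spread described above, the words that Irx5 shares with Irx2 would hold 5.04 to 6.92 counts of Irx5 in the control-labelled libraries, more than the whole Irx2 count in replicates 4 and 5, and their part in the Irx2 values was not tested.

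Irx4 was not detectable at this depth in 6 of 10 libraries. It had 0, 1, 0, 0 and 0 counts in control-labelled and 1, 0, 8, 0 and 1 counts in mutant-labelled replicates 1 to 5, so that 8 of its 11 counts came from a single library. A count of 0 allows up to 3 counts, or 0.103 to 0.139 CPM in these libraries, and only mutant-labelled replicate 3 exceeded that, at 0.342 CPM. Irx4 was left out by the filter on low counts. Heart muscle markers were also low, at 1.19 to 2.59 CPM over all libraries for the 1 of 3 listed genes that was in the table.

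**Figure D2:**
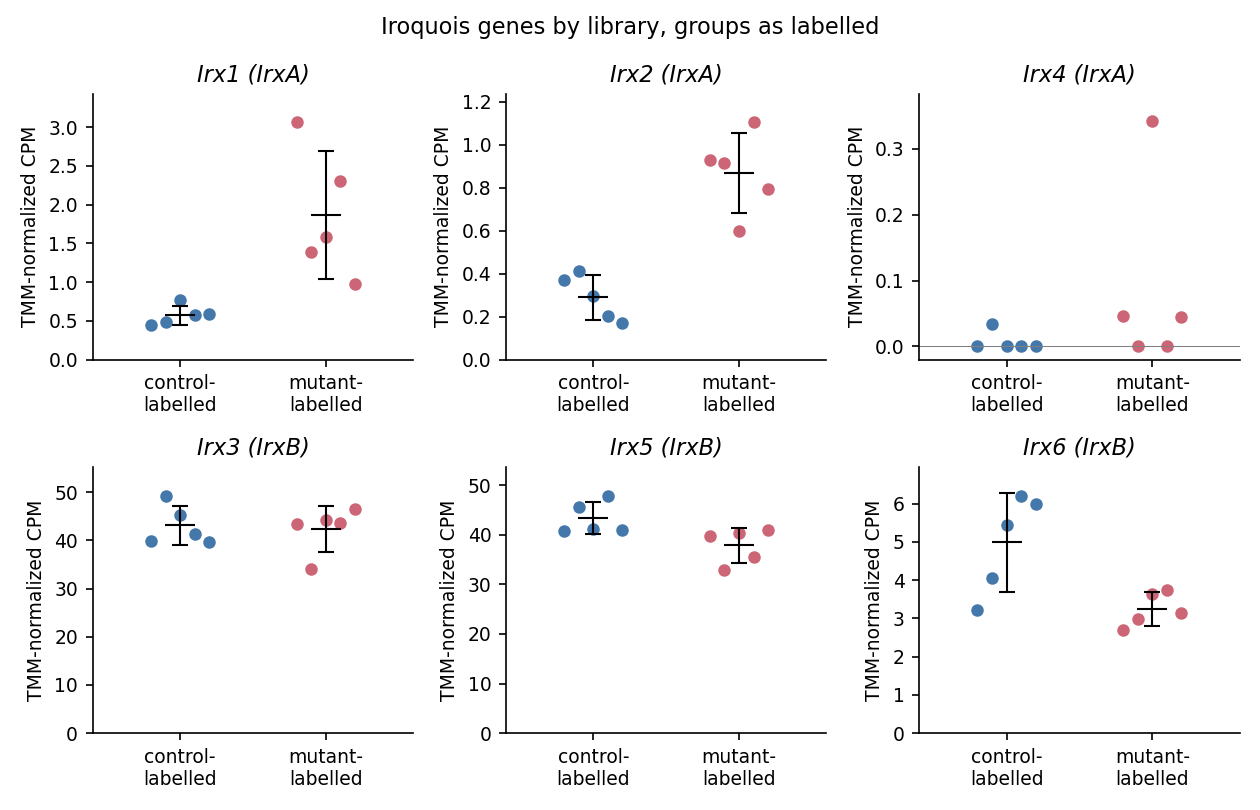
TMM-normalized CPM (scaled by edgeR's trimmed mean of M values) of each Iroquois gene in each library, by label; points are replicates 1 to 5 from left to right, and black bars give the mean ± SD of 5 libraries, left out for Irx4. Vertical scales differ between panels; the groups are apart for Irx1 and Irx2 and overlap for Irx3, Irx5 and Irx6.

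The IrxB genes had overlapping groups. Irx3, with neural, cardiac and limb roles, was at 39.9, 49.3, 45.3, 41.2 and 39.7 CPM in control-labelled replicates 1 to 5 and at 43.4, 34.0, 44.3, 43.5 and 46.4 CPM in mutant-labelled replicates 1 to 5. Apart from the low mutant-labelled replicate 2, all mutant-labelled libraries lay within the control-labelled range. The means were 43.1 ± 4.13 and 42.3 ± 4.81 CPM (SD, n = 5 per group), with a log2 fold change of −0.026 (SE 0.089, 95% interval −0.22 to 0.17), and the sign turned when single libraries were left out (0.049 without mutant-labelled replicate 2, 0.034 without control-labelled replicate 2 and 0.00089 without control-labelled replicate 3).

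Irx5, which acts with Irx3 in limb and heart, was at 40.8, 45.7, 41.2, 47.9 and 41.0 CPM in control-labelled replicates 1 to 5. In mutant-labelled replicates 1 to 5 it was at 39.7, 32.9, 40.3, 35.5 and 40.9 CPM. The groups overlapped only by the margin between the lowest control-labelled library and the highest mutant-labelled one. The means were 43.3 ± 3.26 and 37.8 ± 3.51 CPM (SD, n = 5 per group), a log2 fold change of −0.20 (SE 0.074, 95% interval −0.36 to −0.033), and −0.14 without mutant-labelled replicate 2.

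Irx6, known from retinal interneurons, was at 3.22, 4.05, 5.44, 6.21 and 6.002 CPM in control-labelled replicates 1 to 5. In mutant-labelled replicates 1 to 5 it was at 2.69, 2.98, 3.64, 3.75 and 3.14 CPM. Control-labelled replicate 1 lay inside the mutant-labelled range, and the other control-labelled libraries lay above it. The means were 4.99 ± 1.30 and 3.24 ± 0.445 CPM (SD, n = 5 per group), a log2 fold change of −0.62 (SE 0.189, 95% interval −1.03 to −0.21).

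Read against all genes tested, 0 of the 5 tested members passed an adjusted p of 0.05 in edgeR's quasi-likelihood test, beside 0.0184% of all genes, and 4 had an unadjusted p under 0.05 (Irx1, Irx2, Irx5 and Irx6), beside 7.49% of all genes. In edgeR's test Irx5 missed that threshold with the replicate number as a block (unadjusted p = 0.0595), and without any one of control-labelled replicates 2 and 4 and mutant-labelled replicates 2 and 4 (unadjusted p = 0.0560 to 0.0603). DESeq2's Wald test gave 2 members, Irx1 and Irx2, under an adjusted 0.05, beside 0.597% of all genes, and limma voom gave 0, beside 0.00615%. The groups did not overlap for 2 members, both higher in the mutant-labelled libraries, where 1.48% of all genes had groups apart in either direction and 0.781% with the mutant-labelled libraries higher. The same 2 members had a log2 fold change of at least 1, as had 0.928% of all genes. By log2 fold change Irx1 ranked 15 and Irx2 ranked 27 from the top of 16267, and the quartiles over all genes were −0.086 and 0.096. Because the family was chosen from this contrast, nothing is read from these counts.

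Summed over the clusters, IrxA made up 0.942 ± 0.127% of the family's counts in the control-labelled group and 3.28 ± 0.989% in the mutant-labelled group (SD, n = 5 per group). The IrxA sum was 0.868 ± 0.127 and 2.82 ± 0.895 CPM, whereas the IrxB sum was 91.4 ± 6.14 and 83.4 ± 8.10 CPM. IrxA therefore remained a minor share of the family in every library, from 0.808% at the lowest to 4.49% in mutant-labelled replicate 1. Within IrxB, the log2 ratio of Irx5 to Irx3 was 0.0099 ± 0.14 and −0.16 ± 0.091, and that of Irx6 to Irx3 was −3.15 ± 0.45 and −3.71 ± 0.22.

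The spread between libraries is given beside counting error, the coefficient of variation that the mean count alone would give. Irx1 varied by 44.4% among mutant-labelled libraries, beside a counting error of 15.3%, and by 21.9% among control-labelled libraries, beside 26.4%. Irx2 varied by 35.8% and 21.6% in the control-labelled and mutant-labelled groups, beside counting errors of 36.3% and 22.2%. Irx6 varied by 26.0% in the control-labelled group, beside 8.93%, and by 13.7% in the mutant-labelled group, beside 11.5%.

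Variation within the groups was compared separately from the difference between them. After centring log2 CPM within each group, the Pearson correlation of Irx1 with Irx2 over the 10 libraries was 0.059, against 0.80 before centring. Irx3 and Irx5 had a centred correlation of 0.66, both being lowest in mutant-labelled replicate 2. The lowest of the 10 pairs was that of Irx2 with Irx6, at −0.68, where the spread of Irx2 did not exceed counting error. The points share library depth and normalization, and these values are descriptions over 10 libraries.

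Among 14477 other genes with a mean of at least 1 CPM, those whose centred log2 CPM was most like that of Irx1 were Mical1 (r = 0.945), Fam89b (r = 0.938) and Cntnap1 (r = 0.934). None is named for Irx2, whose spread within the groups did not exceed counting error, although its highest r was 0.944. The spread of Irx1 in the control-labelled group did not exceed counting error either (21.9% beside 26.4%). For Irx3 they were Egln3 (r = 0.959), Ttc38 (r = 0.956) and Zfp395 (r = 0.942), and for Irx5 Acads (r = 0.977), Adipor1 (r = 0.935) and Tmem219 (r = 0.932). For Irx6 they were Ncbp1 (r = 0.951), Dnajc17 (r = 0.950) and Plekho1 (r = 0.935). No gene was named for more than 1 member. Each r is among the highest of 14477 over 10 libraries, and high values arise in such a search without shared regulation. Nothing is read from these names.

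The genes around the clusters were examined in order along the chromosomes, taking every row of the table inside or within 500 kb of either span. Around IrxA there were 11 such rows, of which 7 were tested. None of these 7 had an unadjusted or adjusted p under 0.05 in edgeR's test, nor did DESeq2 or voom give an adjusted p under 0.05 for any row, and their median log2 fold change was −0.060, from −0.22 for Ndufs6, a subunit of mitochondrial complex I, to 0.25 for Tert, the telomerase protein. Around IrxB there were 21 rows, of which 11 were tested. Their median was −0.0057, beside 0.00073 over all genes tested, with values from −0.67 for Ces1d to 0.22 for Slc6a2. Of these 11, 0 passed the adjusted threshold in edgeR, DESeq2 or voom. In edgeR's test 1, Crnde, had an unadjusted p under 0.05, beside 7.49% of all genes.

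Both Irx2 and Irx5 have a noncoding transcript that starts on the opposite strand just upstream. Gm20554, a lincRNA whose annotated start lies 255 bases from that of Irx2, had 0, 1, 3, 2 and 2 counts in control-labelled and 12, 2, 3, 6 and 4 counts in mutant-labelled replicates 1 to 5. Its highest library was mutant-labelled replicate 1, which was also the highest for Irx1, but the groups overlapped and the counts were too low to be tested. Crnde, 1504 bases from Irx5, was at 3.97, 4.05, 5.10, 4.78 and 3.47 CPM in control-labelled replicates 1 to 5 and at 2.41, 2.74, 2.78, 4.34 and 3.36 CPM in mutant-labelled replicates 1 to 5. The groups of Crnde overlapped, and its log2 fold change was −0.45 (SE 0.176; adjusted p = 0.634 by edgeR's quasi-likelihood test). Irx3os, antisense to Irx3, was at 1.96 ± 0.127 and 2.07 ± 0.283 CPM, and Fto, whose introns are known to hold distal enhancers of Irx3, was at 92.1 ± 5.70 and 92.9 ± 5.71 CPM (SD, n = 5 per group).

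**Figure D3:**
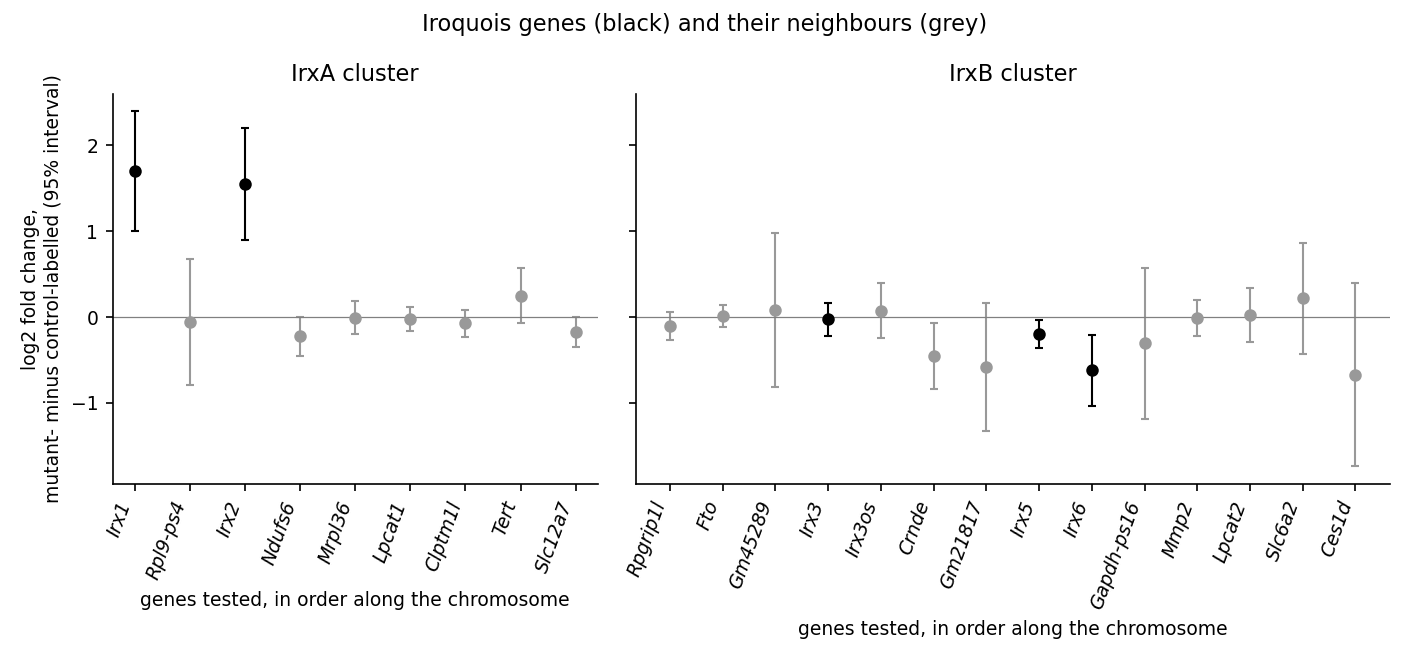
Log2 fold change, mutant-labelled minus control-labelled, with its 95% interval for every tested gene in and within 500 kb of the IrxA and IrxB clusters, in chromosome order; Iroquois genes are black and neighbours grey. In the IrxA panel Irx1 (1.70) and Irx2 (1.55) stand apart from neighbours between −0.22 and 0.25. In the IrxB panel Irx6 is at −0.62, within the range of its neighbours, −0.67 to 0.22.

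Windows listed as promoters, from 250 bases before to 50 bases after the annotated start, were matched for 3 of the 6 members, Irx2, Irx3 and Irx4, in the RefSeq annotation of GRCm38.p6. The windows of Irx2 and Irx3 are shown as those of a member whose groups lay apart and of one whose groups overlapped. The Irx2 window, at chr13:72628570-72628869 on the plus strand, also spans nearly all of the gap to the start of Gm20554. The Irx3 window is at chr8:91801605-91801904 on the minus strand, set from the RefSeq start, and lies wholly inside the longer Irx3 gene of GENCODE M21 given above. Capitals mark CpG pairs, the sites of DNA methylation.
Irx2: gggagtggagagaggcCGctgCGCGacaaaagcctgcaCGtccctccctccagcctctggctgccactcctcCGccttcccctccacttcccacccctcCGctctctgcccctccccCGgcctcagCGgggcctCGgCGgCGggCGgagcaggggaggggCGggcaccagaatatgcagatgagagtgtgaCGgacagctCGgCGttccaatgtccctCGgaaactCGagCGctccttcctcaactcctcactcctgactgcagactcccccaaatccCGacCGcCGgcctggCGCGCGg
Irx3: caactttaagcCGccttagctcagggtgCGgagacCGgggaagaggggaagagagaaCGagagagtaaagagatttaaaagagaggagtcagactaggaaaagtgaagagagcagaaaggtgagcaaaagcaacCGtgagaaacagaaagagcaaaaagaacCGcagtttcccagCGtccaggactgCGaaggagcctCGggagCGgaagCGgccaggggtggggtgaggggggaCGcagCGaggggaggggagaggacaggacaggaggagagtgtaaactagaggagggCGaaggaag
The Irx2 window held 25 CpG pairs with a GC content of 69.0%, and the Irx3 window 14 with 56.0%. The Irx4 window, at chr13:73260247-73260546 on the plus strand, held 31 with 70.7%. The median over 32851 promoters of this length was 7 CpG pairs and 52.7% GC. Searched on both strands, the letters CTTTGAT (bound by TCF/LEF factors of the WNT pathway) were in 3.73% of these promoters, TGGGTGGTC (bound by GLI factors of the hedgehog pathway) in 0.253% and TATAAA (the TATA box) in 13.6%. None of these letters was in the 3 Iroquois windows.

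The other TALE homeobox genes, Mkx and the Meis, Pbx, Pknox and Tgif genes, include partners and relatives of the Iroquois factors. All 12 were tested and 0 passed an adjusted p of 0.05 in edgeR, DESeq2 or voom, while in edgeR's test 2 had an unadjusted p under 0.05, both higher, beside 3.68% of all genes. Mkx, the Mohawk homeobox factor of tendon and ligament, is the closest relative of the Iroquois genes, and was at 28.3, 27.8, 26.4, 22.9 and 23.1 CPM in control-labelled and 34.6, 27.9, 33.4, 29.2 and 35.0 CPM in mutant-labelled replicates 1 to 5, a log2 fold change of 0.31 (SE 0.086). Its groups overlapped at their edges. Meis2, a limb and craniofacial factor, was at 11.7 ± 3.33 and 18.2 ± 6.08 CPM (SD, n = 5 per group), a log2 fold change of 0.64 (SE 0.230). Its groups overlapped, at 7.56 to 16.7 and 13.7 to 28.9 CPM. The highest value was that of mutant-labelled replicate 2, which was also the highest library in neuron markers. The part of that library in the Meis2 difference was not tested. Meis1 had a log2 fold change of 0.26 (SE 0.195). The median over the list was 0.085, beside 0.00073 over all genes, and all 12 values were above 0. Under 11 of 19 alternatives at least 1 of Meis3, Pbx2, Pbx4 and Pknox1 was below 0, and under library size alone 3 were (Meis3, Pbx2 and Pknox1).

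**Figure D4:**
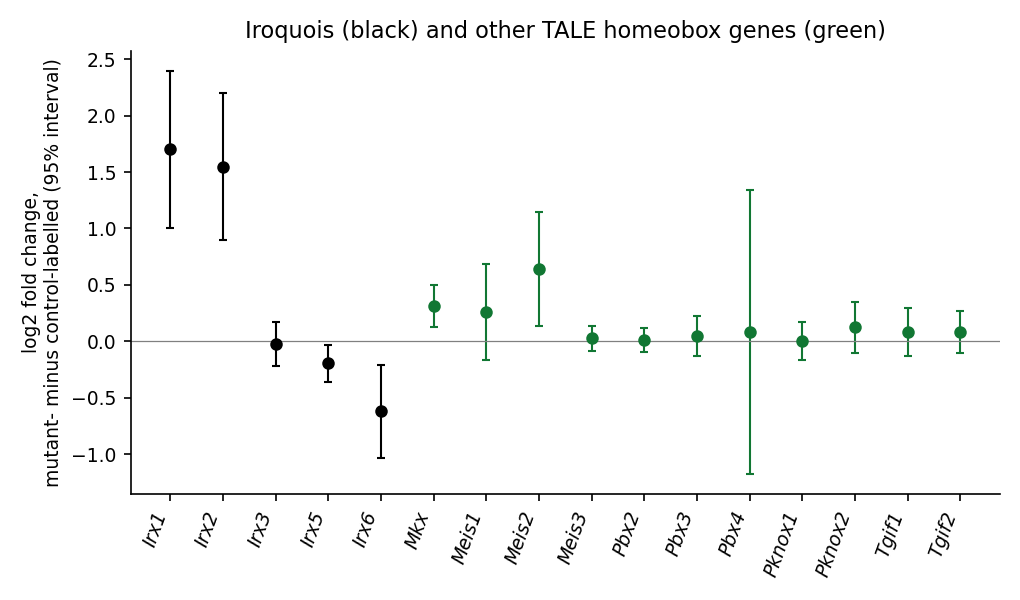
Log2 fold change, mutant-labelled minus control-labelled, with its 95% interval for the 5 tested Iroquois genes (black) and 11 of the 12 other TALE homeobox genes (green). The point estimates of Irx1 and Irx2 lie above all others shown, Meis2 (0.64) is the highest of the others, and the wide interval of Pbx4 goes with its low level.

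Genes of hedgehog and retinoid signalling, known to place Iroquois expression in other tissues, numbered 15 in the list, and 13 were tested. In edgeR's test 0 passed an adjusted p of 0.05 (DESeq2 1, Ptch1, beside 0.597% of all genes; voom 0), 1 was higher at an unadjusted p under 0.05 and 2 were lower, beside 3.68% of all genes higher and 3.82% lower, and the median log2 fold change was −0.010. Ptch1 and Gli1, a receptor and a transcription factor that are themselves targets of hedgehog signalling, were the lower ones, Ptch1 with 122.8 and 99.4 CPM on average (log2 fold change −0.31, SE 0.076) and Gli1 with 52.0 and 42.9 CPM (−0.28, SE 0.088). Ihh, the hedgehog ligand of the growing skeleton, had a log2 fold change of −0.35 (SE 0.165) and did not pass. Shh, another hedgehog ligand, had too few counts to be tested (at most 15 per library). It was at 0 to 0.103 CPM in control-labelled and 0.128 to 0.697 CPM in mutant-labelled libraries. Cyp26a1, also not tested, was at 0 to 0.274 and 0.0426 to 0.514 CPM. Aldh1a1, an enzyme of retinoic acid synthesis, was at 2.08 and 3.62 CPM on average (0.79, SE 0.305). Rarg, a retinoic acid receptor and the most abundant of the list, had a log2 fold change of 0.062 (SE 0.069).

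Of 13 homeobox genes that pattern skull and limb, all were tested, 0 passed an adjusted p of 0.05 in edgeR, DESeq2 or voom, 1 was higher and 2 were lower at an unadjusted p under 0.05, beside 3.68% of all genes higher and 3.82% lower, and the median was 0.00062. Lmx1b, a limb and skull patterning factor, was at 21.1 and 27.8 CPM on average (log2 fold change 0.40, SE 0.118), while Dlx3 and Dlx6, of the distal-less family, had log2 fold changes of −0.26 (SE 0.103) and −0.25 (SE 0.102). Of 6 genes studied with Iroquois factors elsewhere, 4 were tested, 0 had an unadjusted p under 0.05 in edgeR or an adjusted p under 0.05 in edgeR, DESeq2 or voom, and the median was 0.065. They include the factor Gata3 (log2 fold change 0.26, SE 0.313), the chemokine Cxcl12 (0.028, SE 0.100) and the zinc finger factor Trps1 (−0.15, SE 0.114).

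Among the cell type marker lists, the summed levels of AF connective tissue and chondrocyte markers did not overlap between the groups, and those of the other lists did. The osteoblast sum was mostly Col1a1, at 66247 and 64070 CPM on average (log2 fold change −0.048, SE 0.151). Its overlap therefore says little of the other osteoblast markers. The 4 AF connective tissue markers summed to 179, 168, 153, 152 and 148 CPM in control-labelled and 221, 199, 274, 278 and 213 CPM in mutant-labelled replicates 1 to 5, so these groups did not overlap, as for Irx1 and Irx2. All 4 of these genes had an unadjusted p under 0.05 and were higher, beside 3.68% of all genes, with a median log2 fold change of 0.47, and 0 passed an adjusted 0.05 in edgeR or voom and 2 (Tnmd and Matn4) in DESeq2, beside 0.597% of all genes. Mkx is counted both here and among the TALE genes. Of the 8 osteoblast markers, 5 were lower at an unadjusted p under 0.05, beside 3.82% of all genes, with a median of −0.31, and 0 passed an adjusted 0.05 in edgeR or voom and 4 (Ibsp, Alpl, Dmp1 and Spp1) in DESeq2. Chondrocyte markers summed to 265 to 338 CPM in the control-labelled and 351 to 396 CPM in the mutant-labelled group, and 1 of 5, the cartilage collagen gene Col2a1, was higher at an unadjusted p under 0.05, beside 3.68% of all genes (log2 fold change 0.88, SE 0.200), and passed an adjusted 0.05 in DESeq2 but not in edgeR or voom. In bulk tissue, a change in the number of cells of a type and a change in RNA per cell cannot be told apart, and the part of these shifts in the Iroquois values was not tested.

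Single libraries also stood out in markers of other tissues. Neuron markers summed to 483 CPM in mutant-labelled replicate 2, and to 66.1 to 217 CPM in the other 9 libraries, although brain was removed at dissection. That library had the lowest Irx3 and Irx5 of all, and without it the log2 fold changes were 1.79 for Irx1 and 1.53 for Irx2. Skeletal muscle markers summed to 874 CPM in control-labelled replicate 2 and 917 CPM in mutant-labelled replicate 1, and to at most 171 CPM elsewhere. Mutant-labelled replicate 1 was also the highest in Irx1, and without both muscle-rich libraries, an alternative chosen after seeing the data, the log2 fold changes were 1.40 for Irx1, 1.70 for Irx2, −0.18 for Irx5 (unadjusted p = 0.0535 by edgeR, no longer under 0.05) and −0.62 for Irx6. Epidermis markers were low in all libraries, at 11.2 to 19.9 CPM.

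**Figure D5:**
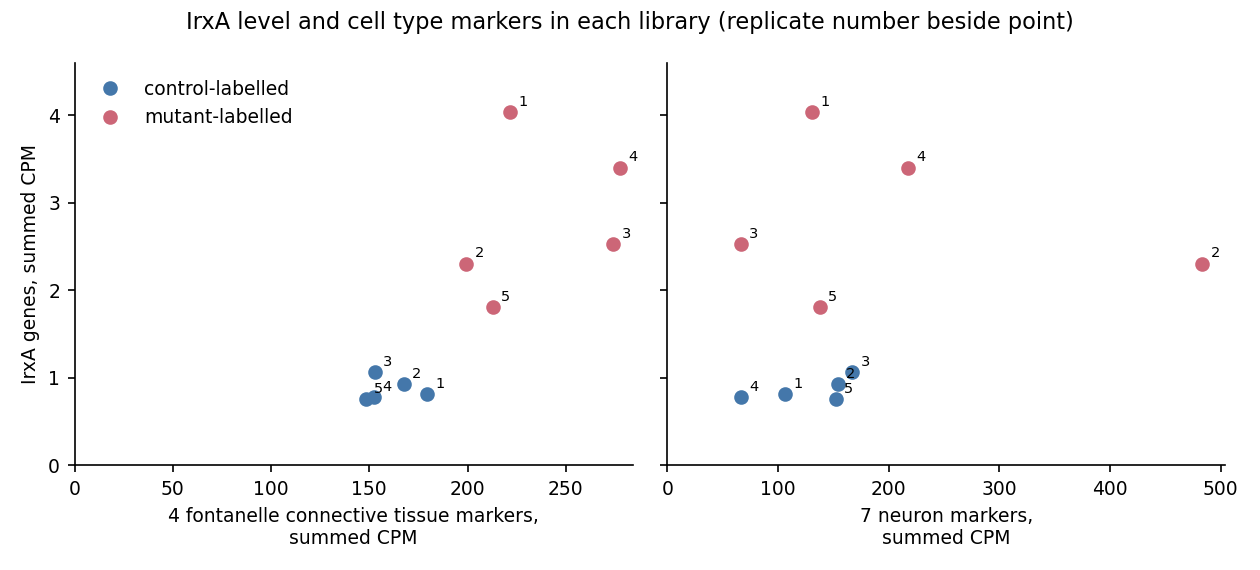
Summed CPM of the IrxA genes (Irx1, Irx2 and Irx4) against the summed CPM of the AF connective tissue markers (left) and the neuron markers (right); each point is a library, numbered by replicate, blue for control-labelled and red for mutant-labelled. The groups are apart on both axes on the left, while on the right mutant-labelled replicate 2 stands at 483 CPM with an IrxA sum inside the range of its group.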

How the data were processed

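Bulk RNA-seq of the dissected AF was made by the authors from stranded libraries read as single 50-base reads on an Illumina instrument. The authors deposited 1 table of estimated counts per gene, not scaled between libraries, in which 66.4% of values are exactly whole and no gene sums to less than 10. The submitters' processing notes name Partek and the mm10 build, while the aligner, counter, strand setting and test are not given in the sources used here. The design had assumed whole counts, so the estimated counts were rounded.

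Libraries were grouped by their labels (5 and 5). Genes were filtered by edgeR's expression filter (6813 left out), scaled by TMM and tested with edgeR 4.0.16 (quasi-likelihood test, Benjamini-Hochberg over 16267 genes, threshold 0.05, no covariate) in R 4.3.3. DESeq2 1.42.0 and limma 3.58.1 (voom) were alternatives, with other scalings, filters, a block for replicate number and each library left out. The fit was tested on simulated data. The study describes its embryos as pairs of littermates but does not assign the libraries to pairs. The p-values of edgeR, DESeq2 and voom weigh the difference between groups against the spread between these libraries. Depth was 20774667 to 28515434 counts, and floors of 3 counts cover counting error only. Levels per kb used GENCODE M21 exons and a pseudocount of 0.01 CPM per kb on the log2 scale, and were compared with Python 3.11.15. Positions follow GENCODE M21, in which 22296 of 22533 matched symbols have the table's start and an end 1 base before its stop. Named genes were the 6 members, at most 4 examples per list (largest change and most abundant), the 3 genes most like each tested member (left out for Irx2) and all rows within 500 kb. Shh, Cyp26a1, Gli1, Dlx3, Dlx6, Alx4, Meis3, Pbx2, Pbx4, Pknox1 and the cell type markers given singly were named after their values were seen. The members and lists were chosen with earlier results of these data known. Some genes that this rule names are not reported here.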

Additional observations from a re-analysis of the deposited data

Results flagged for a closer look

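In groups of 5 libraries, a library was marked when its gap to the nearest other exceeded Dixon's critical value of 0.71 times the group's range, over 36 groups, of which chance marks about 1 in 20. Irx3 was at 34.0 CPM in mutant-labelled replicate 2, where the next library was at 43.4 CPM. Irx4 had 8 counts in mutant-labelled replicate 3, where the next had 1, and 1 count in control-labelled replicate 2, where all others had 0. A single count among libraries at 0 is always marked by this rule, so that mark carries no information. The chance rate above does not hold for such low counts. Irx3os was at 2.56 CPM in mutant-labelled replicate 5, where the next was at 2.04 CPM.

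Among summed markers, skeletal muscle stood at 874 CPM in control-labelled replicate 2 and at 917 CPM in mutant-labelled replicate 1, with the next libraries at 171 and 160 CPM. Hypodermis markers stood at 158 CPM in mutant-labelled replicate 1, with the next at 16.7 CPM. Osteoblast markers were lowest among control-labelled libraries in replicate 2, at 65813 CPM, with the next at 74829 CPM. This sum was mostly Col1a1.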

How the results depend on the processing

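The log2 fold changes of Irx1, Irx5 and Irx6 kept their sign under 19 of 19 alternatives and that of Irx2 under 18 of 18, with ranges of 1.40 to 1.86, −0.24 to −0.14, −0.73 to −0.53 and 1.42 to 1.72. Irx2 had no value under a minimum of 10 counts in every library. With DESeq2's Wald test, Irx1 (1.72) and Irx2 (1.57) passed the adjusted threshold, and with every other alternative no member did. Irx3 reversed without single libraries, from −0.062 to 0.049, and without the 2 libraries highest in muscle markers (0.026, chosen after seeing the data), and the order of Irx3 over Irx5 reversed with the longest transcript (−0.034); the cause was not tested. The other pairs of levels kept order under 12 of 12 alternatives. Against 3 genes passing in the main analysis, 1 passed with library size alone, 97 with DESeq2, 1 with voom, 1 with the replicate block and 1 to 6 without single libraries, and 1219 had an unadjusted p under 0.05. Same-numbered libraries did not deviate together (r from −0.21 to 0.14), so numbers were not taken as pairs, and with the replicate block Irx1 was 1.62, Irx2 1.57, Irx5 −0.20 (unadjusted p = 0.0595 by edgeR) and Irx6 −0.59. Depth limits Irx1, Irx2 and Irx4, which rest on 66 counts or fewer per library.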
